A study of Homo sapiens with 24 samples.

Results

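The comparison described here was between 2 stable Panc-1 lines that had received no doxycycline (Dox): the Tet-PTF1a line, which carries a Dox-inducible mouse PTF1a-myc open reading frame, and the Tet-One line, which carries the same vector without an insert. It used the 4 Control libraries of each line, 8 of the 24 polyadenylated RNA libraries of the series. Genes were matched by name between the gene count tables of the lines, which left 13505 genes in common, and 13429 of them passed the filter on low counts. Both lines were kept under puromycin selection, were at passage 32 and grew in medium with Tet-depleted serum. Each line was derived from individual clones screened after transfection, so a line is a single derivation and the 4 libraries of a line are replicates of that derivation. The other groups of the series were the Dox libraries of both lines (1 µg/ml for 72 h) and another line, Tet-MIST1, at passage 33, which carries a rat MIST1-myc open reading frame, with and without Dox. The lines differed at once in their derivation, in the insert, which may leak without Dox, and in the table in which they were counted, and may have differed in sequencing batch, which the labels do not give. These cannot be told apart in 2 lines.

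Panc-1 is an established human line from a pancreatic ductal adenocarcinoma. It is epithelial in origin, grows with a partly mesenchymal gene expression pattern and is aneuploid, and cells of a culture differ from each other, so that clones taken from it can differ before any transgene is expressed. PTF1a is a basic helix-loop-helix transcription factor that, with RBPJL, maintains the acinar programme of digestive enzyme genes, and it is silent in ductal adenocarcinoma cells. In the Tet-One system a single plasmid carries both the Tet-responsive promoter and the transactivator that binds it when Dox is present, and some transcription without Dox is a known property of such promoters. The Control libraries of a line are the baseline against which its Dox response is read, and the comparison asks how far the baselines of these lines lie apart.

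Library totals ranged from 38894925 to 41389933 counts in Tet-One Control and from 18078331 to 43018494 in Tet-PTF1a Control. Levels are given as CPM, counts brought to a common library total over the genes in common and scaled over all 24 libraries by the trimmed mean of M-values (TMM), and values in a list run from replicate 1 to replicate 4. Human PTF1A was listed only in the Tet-PTF1a table, with 0 to 2 counts in its Control libraries and a mean of 4.92 CPM in its Dox libraries. The insert is a mouse sequence, and how many of its reads were counted at the human gene was not measured. Of the markers of cell types, the 4 ductal keratins KRT7, KRT8, KRT18 and KRT19 summed to between 4949 and 5839 CPM in Tet-One Control and to between 3055 and 3223 CPM in Tet-PTF1a Control. Of 8 acinar markers, 0 were listed for Tet-One and 3 for Tet-PTF1a, where PRSS1, PTF1A and BHLHA15 together reached 0.144 to 0.544 CPM. Their Control means of 0.055, 0.0379 and 0.263 CPM lay under the 0.5 CPM filter of the table. They passed it through the Dox libraries, with means of 3.06, 4.92 and 0.653 CPM. The numbers listed thus do not compare the Control libraries of the lines. Of 4 leukocyte markers only CD14 was listed, at up to 1.08 CPM, of 4 fibroblast markers only PDGFRB, at up to 1.5 CPM, and of 3 endothelial markers 0. Broader lists of such genes held members with higher levels, among them CD68 at 109 CPM, COL1A1 at 125 CPM and THY1 at 67.2 CPM in Tet-One Control.

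The baselines differed at most genes, and at a minority by a large amount. In the quasi-likelihood test of edgeR, at a false discovery rate (FDR) under 0.05, 10674 of 13429 genes were called (79.5%), with 5457 (40.6%) higher and 5217 (38.8%) lower in Tet-PTF1a Control. The median absolute log2 difference was 0.36, and 1282 genes (9.55%) were called with a difference of at least 2-fold. Of these, 899 (6.69% of genes tested) were higher and 383 (2.85%) were lower in Tet-PTF1a Control. At 4-fold or more there were 262 higher and 17 lower genes. At 5104 genes (38%) all 4 Tet-PTF1a libraries lay above all 4 Tet-One libraries, and at 4824 (35.9%) all lay below. The spread behind these calls was small, with a biological coefficient of variation of 4.33% over the 8 libraries, 5.28% within Tet-One Control and 2.87% within Tet-PTF1a Control. Because so many genes passed the test, a share of a gene list that passed is read below against these percentages, and a difference of 2-fold is the more informative measure.

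**Figure D1:**
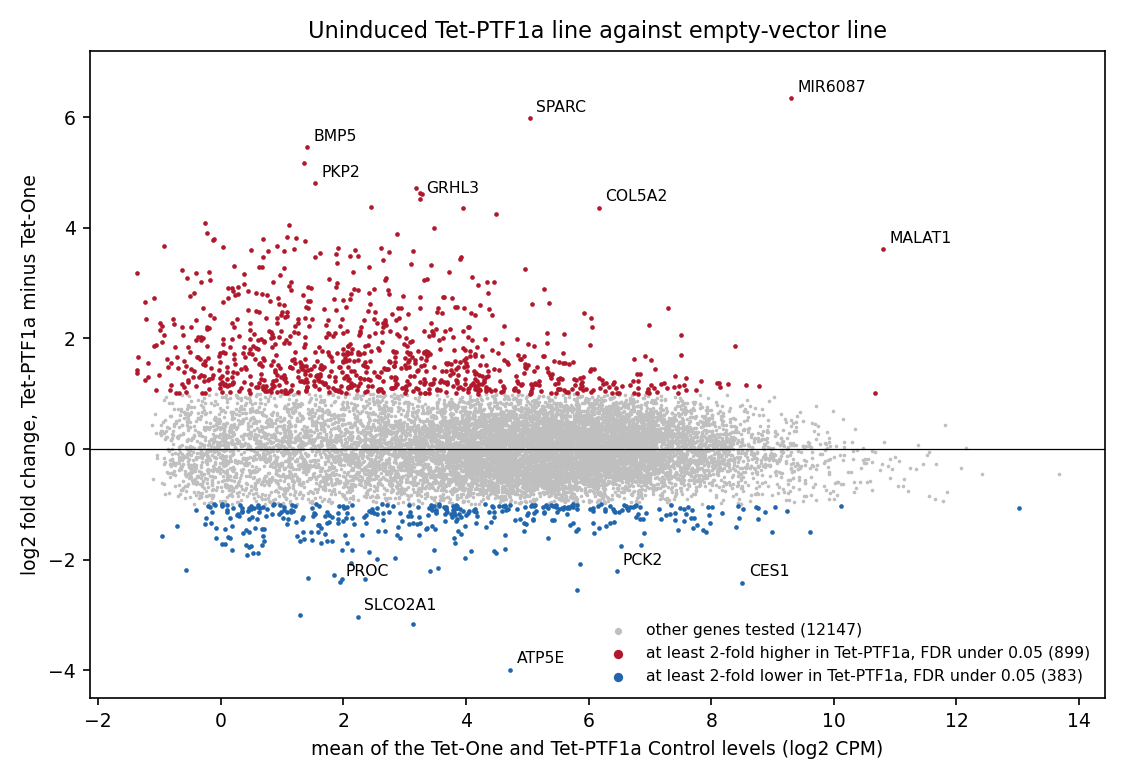
Each point is 1 of the 13429 genes tested, with the mean of its Tet-One and Tet-PTF1a Control levels in log2 CPM (horizontal) and the log2 difference of Tet-PTF1a minus Tet-One Control (vertical); red marks genes called at least 2-fold higher, blue those called at least 2-fold lower and grey all others. The 899 higher genes spread further from zero, up to 6.34 at MIR6087, than the 383 lower ones, down to −3.99 at ATP5E.

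The size of the difference moved with the length and base composition of the genes. From the shortest to the longest of 5 groups of genes of equal size by exon length, the median log2 difference went through −0.27, −0.14, −0.02, 0.13 and 0.34. From the group of lowest GC content to that of highest, it went through 0.39, 0.16, −0.02, −0.26 and −0.32. The same medians for Tet-MIST1 Control minus Tet-One Control, whose tables list identical genes, ran the opposite way and over a smaller range, from 0.10 to −0.14 by length and from −0.07 to 0.05 by GC content. Such a trend runs across all genes, and its part in any single difference was not tested. After each library was corrected for a smooth trend with length and GC, 10235 genes (76.2%) were called and 1037 (7.72%) differed at least 2-fold, 818 (6.09%) higher and 219 (1.63%) lower. Of the genes called in both fits, 7512 kept their direction and 1106 took the opposite one, so the direction of a small difference depends on this step. The value after this step is given below as the trend-removed difference.

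**Figure D2:**
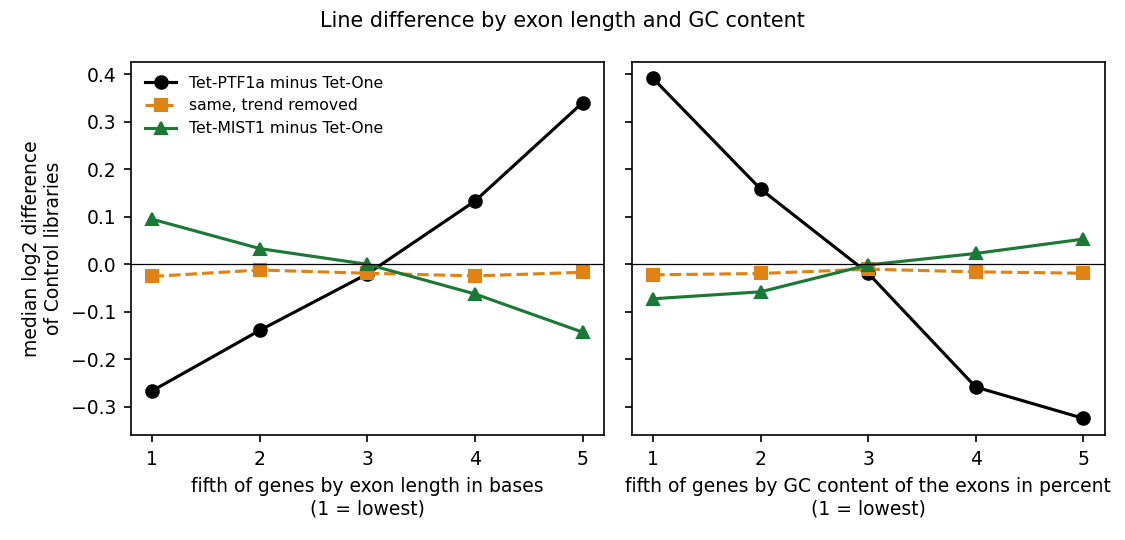
Median log2 difference of the Control libraries (vertical) in 5 groups of genes of equal size, ordered from lowest to highest exon length (left) and GC content of the exons (right), for Tet-PTF1a minus Tet-One as fitted (black), the same with the trend removed (orange) and Tet-MIST1 minus Tet-One (green). The fitted medians run from −0.27 to 0.34 with length and from 0.39 to −0.32 with GC content, and the trend-removed medians stay between −0.03 and −0.01.

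Among genes of the extracellular matrix and secreted factors, several were near their detection limit in Tet-One Control and plainly expressed in Tet-PTF1a Control. SPARC (chr5:151040657-151066615, hg19, minus strand), a collagen-binding matricellular glycoprotein, was at 0.862, 0.935, 1.12 and 0.974 CPM in the Tet-One libraries and at 71.0, 63.5, 59.2 and 66.8 CPM in the Tet-PTF1a libraries. Its log2 difference was 5.99 ± 0.08 (SE; FDR 1.75e-18), and it was also at 11.3 CPM in Tet-MIST1 Control. COL5A2, a chain of fibrillar collagen type V (chr2:189896641-190044605), was at 6.68, 6.52, 7.13 and 6.05 CPM against 141, 138, 134 and 134 CPM, a log2 difference of 4.36 ± 0.05. The largest differences were named only among genes at which the lines did not overlap, so the lack of overlap follows from that choice. Over all genes tested, 38% had all 4 Tet-PTF1a libraries above those of Tet-One and 35.9% all below. At SPARC and COL5A2 the gap was many times the spread within either line.

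The bone morphogenetic protein BMP5 (chr6:55620238-55740375) had 1 to 3 counts in each Tet-One library and stood at 6.15, 4.90, 4.95 and 4.96 CPM in the Tet-PTF1a libraries, and no fold change is given against so few counts. SEMA3A, a secreted semaphorin that repels axons and acts on endothelial cells, was at 1.10, 1.76, 1.64 and 1.08 CPM in Tet-One against 30.2, 29.6, 28.3 and 29.7 CPM in Tet-PTF1a. Ceruloplasmin (CP), the copper-carrying ferroxidase, was at 0.653 to 0.821 CPM against 18.0 to 19.6 CPM. FAM198B, a Golgi glycoprotein gene, was at 0.0513 to 0.131 CPM against 4.79 to 5.28 CPM. For all of these, named under the same condition of no overlap, the lowest Tet-PTF1a library lay far above the highest Tet-One library.

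The remaining large increases included an epithelial regulator, a desmosomal plaque gene and signalling genes. GRHL3 (chr1:24645812-24690970), a grainyhead factor of epidermal barrier formation, was at 0.940, 0.588, 0.795 and 0.641 CPM in Tet-One and at 19.2, 18.2, 17.2 and 18.2 CPM in Tet-PTF1a, a log2 difference of 4.52 ± 0.10. PKP2 (chr12:32943680-33049780), a plakophilin of the desmosomal plaque, was at 0.261, 0.134, 0.0993 and 0.103 CPM against 5.97, 5.71, 4.85 and 6.11 CPM, a log2 difference of 4.81 ± 0.18. ZNF704, PLEKHG1 and ARHGAP18 completed the largest increases, with log2 differences of 4.71 ± 0.10, 4.63 ± 0.14 and 4.37 ± 0.12. ARHGAP18 encodes a GTPase-activating protein and PLEKHG1 a guanine nucleotide exchange factor, which act on small GTPases in opposite ways. PLEKHG1 was also high in Tet-MIST1 Control, at 51.3 CPM.

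The largest difference of all was at a non-coding gene. MIR6087 (chrX:108297772-108297820), which is 49 bases long, was at 7.83, 10.9, 22.8 and 19.6 CPM in Tet-One and at 900, 1318, 1636 and 1142 CPM in Tet-PTF1a, a log2 difference of 6.34 ± 0.40 (FDR 6.11e-06). It was the gene with the widest spread among those named as largest, and in Tet-MIST1 Control it was at 14.5 CPM. A library of polyadenylated RNA is not made to capture a mature miRNA, and what RNA gave these counts was not tested. Both long nuclear RNAs of chromosome 11 that lie next to each other, chosen for description after their values were seen, differed in opposite directions. MALAT1 was at 296, 252, 279 and 249 CPM against 2769, 3693, 3838 and 2901 CPM (3.62 ± 0.14), and NEAT1, the scaffold of paraspeckles, was at 708, 555, 665 and 539 CPM against 278, 273, 259 and 217 CPM (−1.27 ± 0.12). Tet-MIST1 Control resembled Tet-One for MALAT1, at 170 CPM, and Tet-PTF1a for NEAT1, at 203 CPM.

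**Figure D3:**
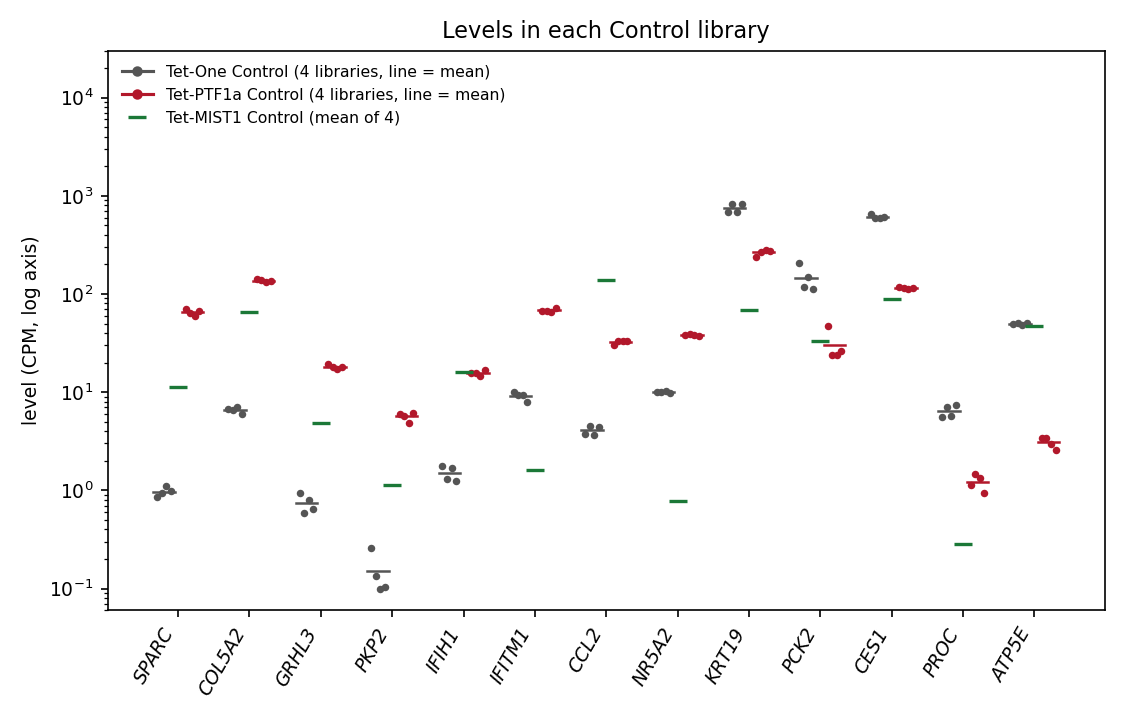
Level in CPM on a log axis of 13 named genes, with 1 point for each of the 4 Tet-One Control (grey) and 4 Tet-PTF1a Control (red) libraries, a line at the mean of each, and a green bar at the mean of the 4 Tet-MIST1 Control libraries. The points of a line lie close together compared with the gap between the lines, which is widest at SPARC (5.99 on the log2 scale), while the green bar lies near Tet-PTF1a at IFIH1 and near Tet-One at ATP5E.

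The lower genes were fewer and their differences smaller. CES1 (chr16:55836764-55867075), a carboxylesterase that hydrolyses esters and activates some prodrugs, was at 646, 596, 598 and 615 CPM in Tet-One and at 116, 114, 113 and 116 CPM in Tet-PTF1a, a log2 difference of −2.42 ± 0.03 (FDR 8.80e-19). The long non-coding RNA C20orf166-AS1 was at 91.2, 102, 89.9 and 102 CPM against 15.3, 15.6, 18.5 and 16.6 CPM. SLCO2A1, the prostaglandin transporter, was at 10.3, 7.34, 9.12 and 7.41 CPM against 1.22, 0.544, 0.576 and 1.2 CPM. The lack of overlap was again a condition for naming these genes. PROC, the precursor of the anticoagulant protein C, BOC, a receptor for Hedgehog ligands, CAPN11, a calpain protease, and MEG9, an imprinted non-coding RNA, were lower with log2 differences of −2.41, −2.33, −2.29 and −2.35. C20orf166-AS1, SLCO2A1 and PROC were lower still in Tet-MIST1 Control, at 1.39, 0.268 and 0.282 CPM, while CAPN11 was at 18.8 CPM there.

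At several of the lower genes the counting itself may bear on the value. ATP5E, the epsilon subunit of mitochondrial ATP synthase (chr20:57603733-57607422), was at 49.6, 50.6, 48.4 and 50.2 CPM in Tet-One and at 3.43, 3.37, 2.98 and 2.58 CPM in Tet-PTF1a, a log2 difference of −3.99 ± 0.07. It was at 47.6 CPM in Tet-MIST1 Control. MSTO1, with 84.5% of the 31-base words of its exons also found elsewhere in the genome and exons that overlap those of MSTO2P, was at 4.03 to 4.99 CPM against 0.384 to 0.707 CPM. CHMP3, an ESCRT-III subunit, was at 8.25 to 9.11 CPM against 1.41 to 1.87 CPM. How reads shared between genes were assigned is not given in the sources used here, so these values are uncertain.

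ATP5E and CHMP3 are both named in a read-through gene, a RefSeq gene model that joins neighbouring genes, and this property was examined after their values were seen. RefSeq (GRCh38.p14) held 193 such models, in which 210 tested genes are named. Of those 210 genes, 17 (8.10%) were at least 2-fold lower in Tet-PTF1a Control and 13 at least 2-fold higher, whereas of the 13219 other genes 366 (2.77%) were lower and 886 higher. With the trend removed the lower counts were 8 (3.81%) and 211 (1.6%). Besides ATP5E and CHMP3, the lower genes included NEDD8, a ubiquitin-like modifier, at 100 CPM in Tet-One against 34.9 CPM in Tet-PTF1a, TMEM256 at 14.1 against 4.72 CPM, COX16 at 15.1 against 5.57 CPM and TTC4 at 3.79 against 1.30 CPM. In Tet-MIST1 Control the same genes were at 81.5, 12.2, 11.8 and 3.89 CPM, on the side of Tet-One in each case. The part that read assignment has in these differences was not tested.

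Epithelial junction genes were higher in Tet-PTF1a Control. Of 36 members tested, 26 were called higher, 7 lower and 3 were not called, against 40.6% higher and 38.8% lower over all genes. At least 2-fold, 14 were higher and 0 lower, against 6.69% and 2.85%. The median log2 difference was 0.83 (trend-removed 0.61) against 0.01 over all genes tested. Apart from PKP2 and GRHL3 (above), DSC3, a desmosomal cadherin, was at 0.731, 0.775, 1.17 and 0.846 CPM against 14.7, 14, 12.9 and 13.3 CPM. ESRP1, the epithelial splicing regulator, was at 0.157 to 0.298 CPM against 3.46 to 4.49 CPM. E-cadherin (CDH1) was at 5.00 CPM in Tet-One and 13.6 CPM in Tet-PTF1a (log2 difference 1.44), P-cadherin (CDH3) at 0.212 and 3.20 CPM (3.59), and claudin-1 (CLDN1) at 3.73 and 20.8 CPM (2.46). The lower members included CLDN7 (−0.98), GRHL1 (−0.72), SPINT2 (−0.67), a Kunitz protease inhibitor with the highest level per exon length of the list, and ESRP2 (−0.63). In Tet-MIST1 Control, 7 of the 14 genes lay nearer to Tet-PTF1a and the rest nearer to Tet-One.

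The ductal keratins KRT19, KRT8 and KRT18 went the other way. KRT19 (chr17:39679869-39684641), the keratin used most often to mark pancreatic ducts, was at 685, 817, 683 and 829 CPM in Tet-One and at 240, 269, 277 and 276 CPM in Tet-PTF1a, a log2 difference of −1.51 ± 0.09 (FDR 6.97e-07). KRT8 was at 2727 to 3223 CPM against 1732 to 1831 CPM, and KRT18 at 1537 to 1786 against 1065 to 1115 CPM. All 3 were lower still in Tet-MIST1 Control, at 69.4, 925 and 703 CPM. MUC16, the mucin that carries the CA125 antigen, was higher, at 4.21 to 5.44 against 12.4 to 14.5 CPM. Of the 12 ductal genes tested, 1 was called higher, 4 lower and 7 were not called. The list as a whole thus had fewer calls than the 79.5% of all genes. With the trend removed 3 were higher and 5 lower, and the median went from −0.07 to 0.07.

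Mesenchymal and matrix genes were called in both directions. Of 31 mesenchymal genes, 16 were higher and 11 lower, with 7 and 4 at least 2-fold, and the median was 0.30. With the trend removed 18 were higher and 13 lower, 9 and 1 at least 2-fold, and the median was 0.67. Beside SPARC, the follistatin-like gene FSTL1 was at 4.67 to 5.76 CPM against 30.2 to 33.6 CPM, fibronectin (FN1) at 1.10, 2.40, 2.81 and 1.31 CPM against 6.22, 6.04, 7.45 and 6.47 CPM, and the myosin light chain MYL9 at 19.5 to 23.6 against 69.4 to 77.2 CPM. Vimentin (VIM), the most abundant member per exon length, was lower, at 6092 to 6605 CPM against 4553 to 4730 CPM (−0.45 ± 0.03). Among collagens, laminins and matrix proteoglycans, 22 of 36 were higher and 10 lower, with 10 and 3 at least 2-fold. COL12A1 (2.74), the laminin chain LAMA3 (2.58) and fibrillin-1 (FBN1, 2.54) followed COL5A2, while COL18A1, the precursor of endostatin and the member with the highest level per exon length, had a log2 difference of −0.42. Of 16 integrin subunits, 5 were higher and 6 lower, and 3 were at least 2-fold higher: ITGB8 (1.85), ITGB4 (1.18) and ITGAV (1.13). In the Dox libraries the difference of ITGB4 was −0.30 and was not called (FDR 0.161).

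**Figure D4:**
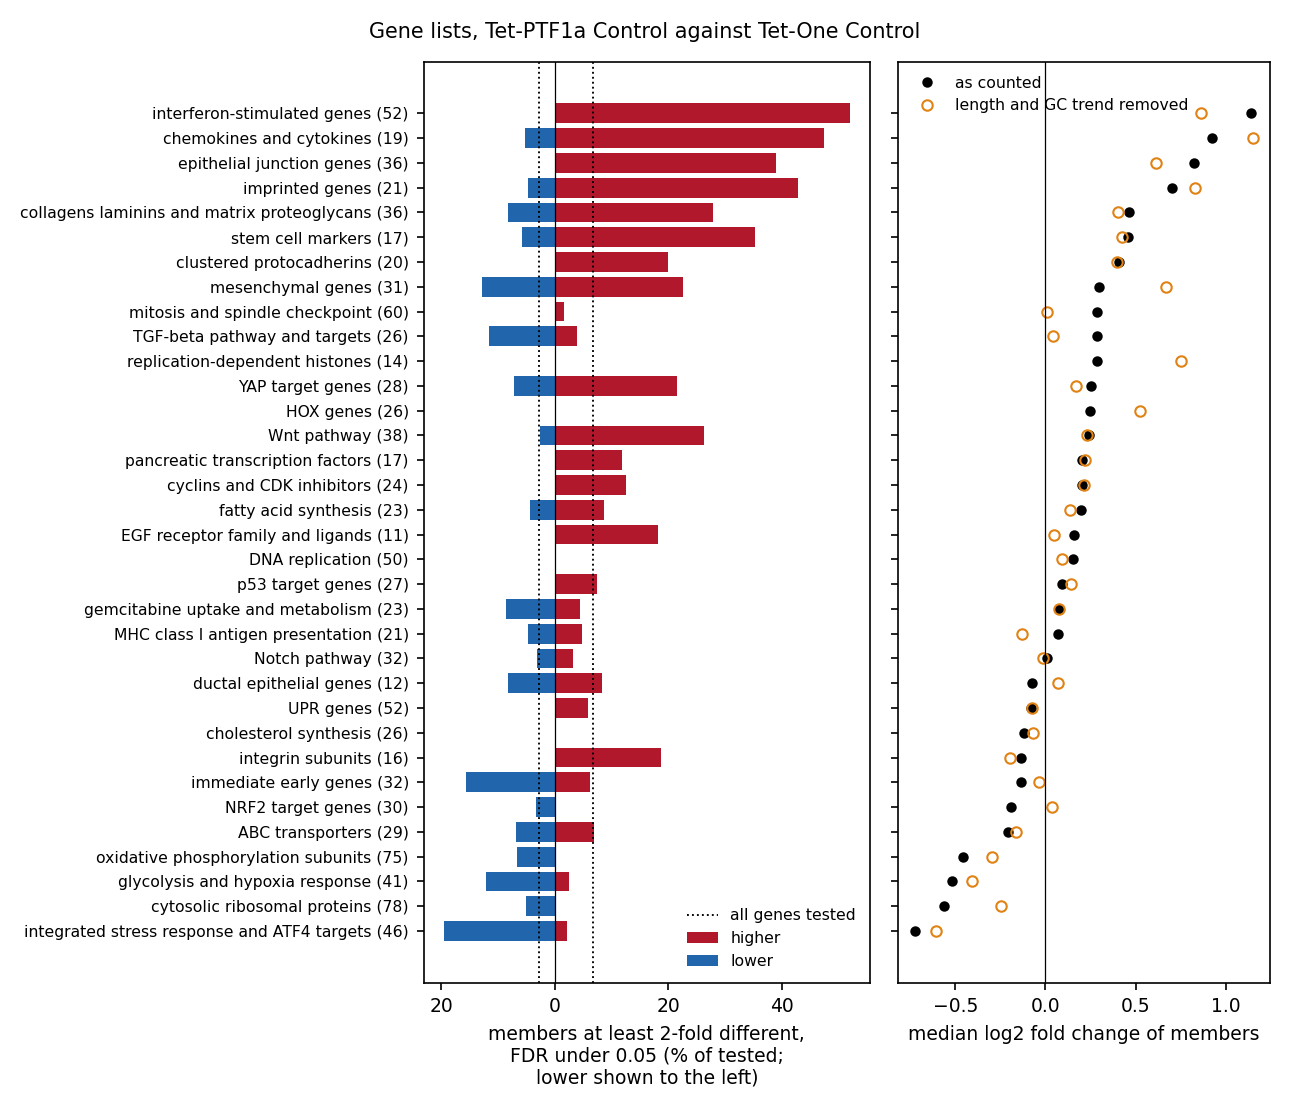
For each gene list with its number of tested members, the left panel gives the percent of members called at least 2-fold higher (red, to the right) or lower (blue, to the left) in Tet-PTF1a Control, with dotted lines at the 6.69% and 2.85% of all genes, and the right panel the median log2 difference as counted (black) and with the trend removed (open orange). Interferon-stimulated genes have the highest median as counted of the lists shown, at 1.14, and the stress response targets of ATF4 the lowest, at −0.73.

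Interferon-stimulated genes were higher in Tet-PTF1a Control as a group. These genes are switched on by the ISGF3 complex, which binds the interferon-stimulated response element (ISRE), and they encode sensors and effectors of antiviral defence. Of 52 members tested, 39 were higher, 6 lower and 7 were not called; 27 were at least 2-fold higher, against 6.69% of all genes, and 0 at least 2-fold lower. The median log2 difference was 1.14, and 0.86 with the trend removed, when 24 members were at least 2-fold higher. IFIH1 (chr2:163123589-163175218), the cytosolic double-stranded RNA sensor MDA5, was at 1.75, 1.31, 1.69 and 1.23 CPM in Tet-One and at 15.8, 15.7, 14.6 and 16.7 CPM in Tet-PTF1a (3.35 ± 0.09; FDR 6.11e-15). IFITM1, an interferon-induced membrane protein that restricts virus entry, was at 10.0, 9.46, 9.41 and 7.95 CPM against 67.3, 67.3, 66.0 and 72.4 CPM (2.89 ± 0.06). OASL, a relative of the oligoadenylate synthetases, was at 1.90 to 2.66 against 12.8 to 13.8 CPM, and SAMD9L, a growth-restricting antiviral factor, at 0.0522 to 0.149 against 1.09 to 1.59 CPM. No Tet-One library reached the Tet-PTF1a range at any of these genes.

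The increase reached the other families of the list. The oligoadenylate synthetases OAS1, OAS2 and OAS3 had log2 differences of 1.98, 2.01 and 1.46, and IFIT1, IFIT2 and IFIT3, which bind viral RNA, of 1.08, 1.32 and 2.14. The dynamin-like GTPase MX1 was at 2.08 CPM in Tet-One and 8.57 CPM in Tet-PTF1a (2.04). Of the ISGF3 subunits, IRF9 was at 16.8 and 19.9 CPM (0.25), and STAT2 was at 36.7 and 34.8 CPM (−0.08, not called). ISG15, the ubiquitin-like protein that gives the family one of its names, was at 15.2 and 16 CPM and was not called as fitted. Its trend-removed difference was 0.57 and was called (FDR 4.1e-09). PARP10 (−0.61), ISG20 (−0.59) and TRIM25 (−0.43) were lower. In Tet-MIST1 Control, 24 of the 27 genes at least 2-fold higher lay nearer to Tet-PTF1a than to Tet-One, for example IFIH1 at 16 CPM, OASL at 13.3 CPM and IFIT3 at 17.3 CPM. IFITM1 was an exception, at 1.6 CPM, and outside these 27 MX2 was at 59.3 CPM in Tet-One, 54.6 CPM in Tet-PTF1a and 2.34 CPM in Tet-MIST1. Over all 899 genes at least 2-fold higher that share was 57%.

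The core of the ISRE was looked for in the 250 bases before each gene's start in RefSeq (GRCh38.p14), as a pair of TTTC half-sites with any 2 bases between them, or the reverse complement, a pair of GAAA. It occurred in 839 of 27305 promoters (3.07%) and in 226 of the 9949 promoters of tested genes (2.27%). Of the 40 interferon-stimulated members with a promoter in the table, 21 (52.5%) held it: 12 of the 21 that were at least 2-fold higher and 9 of the other 19. The following 30-base windows show the match, in capitals, in genes at the top, in the middle and at the bottom of the range of differences, each in the direction of its gene.
IFIH1, chr2:162318686-162318715, minus strand, log2 difference 3.35: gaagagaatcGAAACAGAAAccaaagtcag
IFITM1, chr11:313990-314019, plus strand, log2 difference 2.89: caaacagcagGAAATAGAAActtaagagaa
IFIT3, chr10:89327865-89327894, plus strand, log2 difference 2.14: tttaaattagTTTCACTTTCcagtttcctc
OAS3, chr12:112938321-112938350, plus strand, log2 difference 1.46: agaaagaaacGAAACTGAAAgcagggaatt
IFITM3, chr11:320876-320905, minus strand, log2 difference 0.94: aaactgttgaGAAACCGAAActactgggga
ISG15, chr1:1013380-1013409, plus strand, log2 difference 0.06, not called: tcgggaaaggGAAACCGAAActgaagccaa
ISG20, chr15:88638937-88638966, plus strand, log2 difference −0.59: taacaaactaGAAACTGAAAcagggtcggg
The core was thus found in members that were higher, in a member that was not called as fitted and in a member that was lower.

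Chemokines and cytokines were mostly higher. Of 19 tested, 11 were higher and 7 lower, against 40.6% and 38.8% of all genes. At least 2-fold, 9 were higher and 1 lower, against 6.69% and 2.85%, and the median was 0.93. The monocyte chemoattractant CCL2 was at 3.79, 4.57, 3.70 and 4.44 CPM against 29.9, 33.1, 33.4 and 33.5 CPM (2.96 ± 0.07), and it was higher still in Tet-MIST1 Control, at 138 CPM. The inflammasome product IL18 was at 3.13 to 4.17 against 16.7 to 19.8 CPM, IL32 at 0.695 to 0.949 against 3.25 to 4.66 CPM, and the death ligand TRAIL (TNFSF10) at 0.0497 to 0.103 against 0.716 to 1.14 CPM. The macrophage growth factor CSF1, the member with the highest level per exon length, was lower at 224 to 243 against 102 to 108 CPM (−1.16 ± 0.03). Antigen presentation by MHC class I did not follow the interferon list: of 21 genes, 8 were higher and 9 lower, with 1 and 1 at least 2-fold. HLA-F, a non-classical class I heavy chain, was at 1.25 to 1.79 against 3.89 to 4.26 CPM (1.44 ± 0.11), and the immunoproteasome subunit PSMB10 was at 17.5 to 23.4 against 11.8 to 13.7 CPM (−0.75 ± 0.09).

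Targets of ATF4 and the integrated stress response were lower as a group. ATF4 is translated when eIF2α is phosphorylated, for example on amino acid shortage, and drives genes for amino acid synthesis, uptake and tRNA charging. Of 46 members tested, 34 were lower, against 38.8% of all genes, 3 higher and 9 were not called. At least 2-fold, 9 were lower and 1 higher, against 2.85% and 6.69% of all genes. The median log2 difference was −0.73, and −0.61 with the trend removed. With the trend removed 3 members were at least 2-fold lower and 2 higher, against 1.63% and 6.09% of all genes. PCK2, the mitochondrial phosphoenolpyruvate carboxykinase (chr14:24563340-24573341), was at 204, 117, 149 and 112 CPM in Tet-One and at 46.7, 24.1, 23.8 and 26.4 CPM in Tet-PTF1a (−2.21 ± 0.32; FDR 0.000599). The pseudokinase gene TRIB3 was at 121, 80.1, 103 and 84.1 CPM against 55.7, 32.3, 27.7 and 33.2 CPM (−1.34 ± 0.26), and the mTORC1 inhibitor gene DDIT4 at 554, 478, 495 and 438 CPM against 212, 172, 176 and 179 CPM (−1.41 ± 0.09). In each of these the first library of both lines was the highest of its group, which widened the spread, yet the lines did not overlap.

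Other members, chosen after their values were seen, are given by function and do not measure a branch as a whole. Asparagine synthetase (ASNS) was at 350 CPM in Tet-One and 152 CPM in Tet-PTF1a, cystathionine beta-synthase (CBS) at 162 and 66.9 CPM, the glutathione-degrading enzyme CHAC1 at 48.8 and 19.5 CPM, and PHGDH, the first enzyme of serine synthesis, at 155 and 74.2 CPM. ATF4 itself was at 521 and 271 CPM (−0.94). Of the aminoacyl-tRNA synthetases, SARS (−1.19), MARS (−0.99) and YARS (−0.85) were lower and EPRS (−0.09) was not called. Of the amino acid transporters, SLC3A2 (−0.80), SLC6A9 (−0.56), SLC1A5 (−0.51) and SLC7A5 (−0.42) were lower. SLC7A1 (−0.40), SLC1A4 (−0.09) and SLC7A11 (0.07) were not called. GDF15, a stress-induced cytokine that other pathways also induce, went the other way. It was at 33.9, 20.8, 32.7 and 23.8 CPM against 134, 88.6, 88.4 and 95.8 CPM (1.88 ± 0.22). The other members called higher were NUPR1 (0.74) and CEBPB (0.56). In Tet-MIST1 Control, 5 of the 9 genes at least 2-fold lower lay nearer to Tet-PTF1a. The C/EBP-ATF response element, TGATGNAAN on either strand, occurred in 867 of 27305 promoters (3.18%) and in 3 of the 27 members with a promoter in the table. The match in ASNS, whose element responds to amino acid supply, is printed as the best known of these 3.
ASNS, chr7:97872457-97872486, minus strand, log2 difference −1.20: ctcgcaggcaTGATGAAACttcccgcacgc

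**Figure D5:**
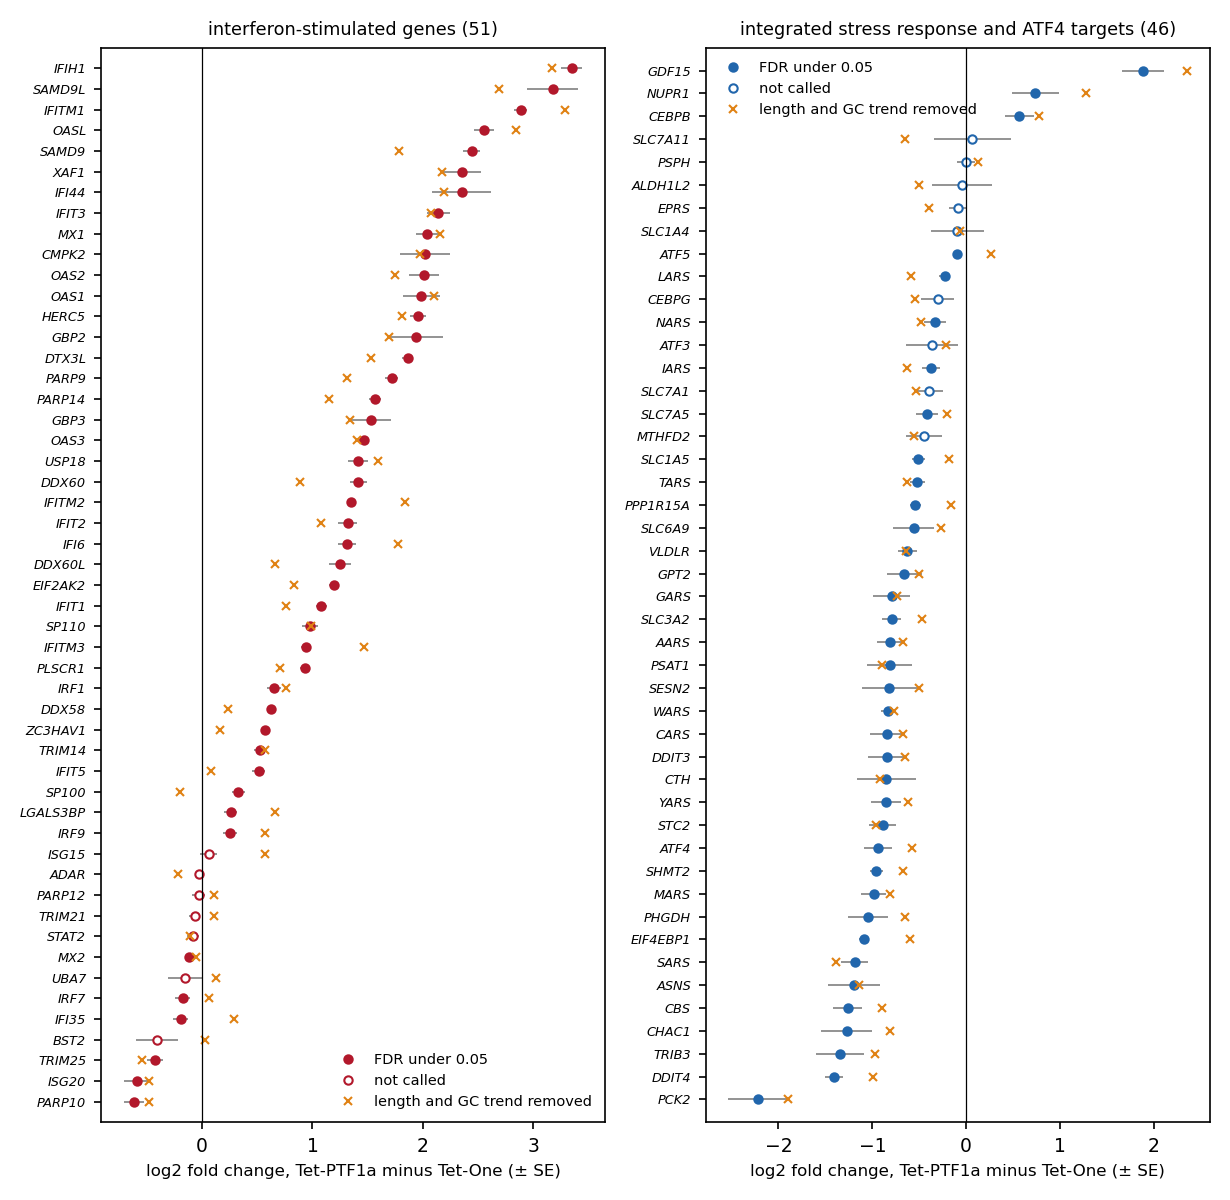
Log2 difference of Tet-PTF1a minus Tet-One Control for 51 of the 52 tested members of the interferon-stimulated list (left) and for all 46 of the stress response and ATF4 list (right), with bars for the SE, filled points for genes called, open points for genes not called and crosses for the trend-removed difference. Interferon-stimulated genes run from −0.61 to 3.35, most of them above zero, and the stress response targets from −2.21 to 1.88, most of them below zero.

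Glycolytic and hypoxia-responsive genes were lower too, with 33 of 41 lower and 5 higher, against 38.8% and 40.6% of all genes. At least 2-fold, 5 were lower and 1 higher, against 2.85% and 6.69%. The median was −0.52 (trend-removed −0.41). With the trend removed 2 were at least 2-fold lower and 1 higher, against 1.63% and 6.09% of all genes. The neuronal-type aldolase ALDOC was at 84.1 to 114 CPM in Tet-One and 21.1 to 23.7 CPM in Tet-PTF1a, and the lipase inhibitor ANGPTL4 at 105 to 142 against 41.4 to 53.4 CPM. GAPDH, the member with the highest level per exon length, was at 4393, 5090, 4322 and 4724 CPM against 2284, 2422, 2473 and 2488 CPM (−0.94 ± 0.05). The pyruvate dehydrogenase kinase PDK3 was the only member at least 2-fold higher, at 6.55 to 8.22 against 25.1 to 27.3 CPM. The unfolded protein response did not follow: of 52 genes, 20 were higher and 24 lower, with 3 at least 2-fold higher, among them the oxidase ERO1B at 3.72 to 4.62 against 23.5 to 26.7 CPM.

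Genes of ribosomal proteins and of oxidative phosphorylation were lower by small amounts and almost without exception. Of 78 cytosolic ribosomal proteins, 72 were lower and 2 higher, with a median of −0.56, and of 75 oxidative phosphorylation subunits 68 were lower and 2 higher, with a median of −0.46. These are short, highly expressed genes, and with the trend removed the medians were −0.25 and −0.30, with 10 members of each list higher and 59 and 53 lower. RPS16, the gene with the highest level per exon length in Tet-One, was at 11330, 11380, 10790 and 11430 CPM against 5474, 5280, 5421 and 5374 CPM (−1.06 ± 0.03). RPL37 was at 631 to 658 against 289 to 294 CPM, and the complex I subunits NDUFA3, NDUFB7 and NDUFS7 had log2 differences of −1.09, −1.05 and −1.03. Beyond the ribosome, the translation factor EEF1A1 (−0.45) and fibrillarin (FBL, −0.77), the methyltransferase of ribosomal RNA, were lower as well, and of the iron storage and antioxidant genes FTL was lower by 0.92 on the log2 scale. In both lists 0 members were at least 2-fold higher, and 4 ribosomal protein genes and 5 oxidative phosphorylation genes were at least 2-fold lower.

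Genes of the cell cycle differed little. Of 60 mitotic genes, 40 were higher and 15 lower, but 1 was at least 2-fold higher, ASPM at 94.6 to 105 against 205 to 223 CPM, and the median of 0.29 was 0.01 with the trend removed. Of 50 DNA replication genes, 27 were higher and 12 lower with 0 at 2-fold, and PCNA was at 190 to 202 against 221 to 230 CPM. Among cyclins and CDK inhibitors 14 of 24 were higher and 6 lower. CDK6, the partner of D-type cyclins, was at 82.7, 84.7, 91.8 and 83.0 CPM against 287, 278, 258 and 287 CPM (1.70 ± 0.04), and the CDK inhibitor CDKN1C at 1.2 to 1.66 against 3.89 to 4.70 CPM. CCND2 was at 1.49 to 2.32 CPM against 9.40, 3.70, 3.65 and 4.09 CPM, so that 1 library stood above the rest of its line. Of 27 p53 targets, 12 were higher and 9 lower.

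Signalling pathways differed at single members more than as lists. In the Wnt pathway 21 of 38 genes were higher and 8 lower, with 10 and 1 at least 2-fold and a median of 0.24. The R-spondin receptor LGR4 was at 19.7, 18.1, 19.6 and 17.4 CPM against 110, 101, 98.7 and 98.8 CPM (2.45 ± 0.05), the co-receptor ROR1 at 0.374 to 0.522 against 3.32 to 4.37 CPM, and the feedback inhibitor AXIN2, a common target of the pathway, at 0.507 to 0.692 against 2.33 to 2.76 CPM. The secreted inhibitor DKK1 was at 45.5, 41.0, 44.8 and 45.0 CPM against 217, 208, 205 and 208 CPM (2.25 ± 0.04), while in the Dox libraries of the lines its difference was 0.13. Of 28 YAP targets, 17 were higher and 10 lower, with AMOTL1 (2.21), CDC42EP3 (1.75) and THBS1 (1.58) after FSTL1.

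In the TGF-beta pathway 16 of 26 genes were higher and 9 lower. LTBP2, a latent TGF-beta binding protein of the matrix, was at 807 to 835 against 371 to 384 CPM (−1.12 ± 0.03), and the ligand TGFB3 had a log2 difference of −1.01. SKIL, which represses SMAD targets, was higher at 55.3 to 62.0 against 178 to 196 CPM. Of 32 Notch genes 12 were higher and 11 lower, with the ligand DLL1 at 1.63 and HES2 at −1.14. Of 11 EGF receptor family genes 6 were higher and 4 lower, with the ligands NRG1 at 2.80, TGFA at 1.54 and HBEGF at −0.64. Immediate early genes were called in both directions, 10 higher and 16 lower of 32: FOS was at 5.35 to 8.12 against 1.36 to 1.79 CPM and FOSB at 7.18 to 9.24 against 1.91 to 2.45 CPM, whereas KLF4 was at 0.267 to 0.546 against 1.41 to 2.21 CPM.

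Stem cell markers and drug-handling genes were both followed by the study under Dox. Of 17 stem cell markers tested, 9 were higher and 4 lower, with 6 and 1 at least 2-fold. Among them SOX2, a pluripotency factor, was at 0.0522, 0.347, 0.199 and 0.282 CPM against 2.69, 3.27, 2.50 and 3.5 CPM, and the tuft and stem cell kinase DCLK1 at 0.0261, 0.0534, 0.124 and 0.103 CPM against 2.03, 1.58, 1.68 and 1.82 CPM, which is 1 to 5 counts per Tet-One library. CD44 was at 1392 to 1456 CPM in Tet-One and 1411 to 1454 CPM in Tet-PTF1a and was not called (0.01 ± 0.03); with the trend removed its difference was −0.36. Of 29 ABC transporters, 11 were higher and 17 lower, with 2 and 2 at least 2-fold. The cholesterol exporter ABCA1 was at 1.17 to 1.77 against 8.6 to 9.80 CPM, ABCA5 had a log2 difference of 1.08, and ABCA7 and ABCG4 of −1.13 and −1.10. Of 23 genes of gemcitabine uptake and metabolism, 12 were higher and 10 lower, with 1 and 2 at least 2-fold. The equilibrative nucleoside transporter SLC29A2 was at 66.2 to 74.8 against 32.3 to 36.4 CPM (−1.03 ± 0.05), the nucleoside diphosphate kinase NME1 differed by −1.09, the mitochondrial kinase CMPK2, also an interferon-stimulated gene, by 2.02, and the p53-induced ribonucleotide reductase subunit RRM2B by 0.92.

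Pancreatic transcription factors mostly differed by less than 2-fold. Of 17 tested, 9 were higher and 5 lower. At least 2-fold, NR5A2 and TCF4 were higher, against 6.69% of all genes. With the trend removed 3 were at least 2-fold higher, among them PDX1 (1.28). NR5A2 (chr1:199996730-200146550), a nuclear receptor that supports acinar differentiation together with PTF1a, was at 10.0, 10.0, 10.2 and 9.90 CPM in Tet-One and at 38.1, 38.7, 38.3 and 37.6 CPM in Tet-PTF1a (1.92 ± 0.04; FDR 7.15e-16), and it was at 0.770 CPM in Tet-MIST1 Control. The E protein TCF4, a possible partner of bHLH factors, was at 2.25 to 3.31 against 11.4 to 13.0 CPM. PDX1, the pancreatic homeobox factor, was at 0.744 to 1.09 against 1.54 to 2.07 CPM, and ID2, which sequesters E proteins, was lower at 8.72 to 11.3 against 4.84 to 6.37 CPM. Digestive enzyme genes were nearly silent in both lines: 29 of 33 were in neither table, and of the 3 tested CTRL was lower, at 2.46 to 3.56 against 1.68 to 2.35 CPM. Of 26 HOX genes, 15 were higher and 3 lower, 0 of them 2-fold, the highest difference being 0.93 at HOXA6. With the trend removed HOXA6 (1.44) and HOXD4 (1.13) were at least 2-fold higher, and the median went from 0.25 to 0.53.

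Imprinted genes are expressed from 1 parental allele, and their 21 tested members were 13 higher and 5 lower, with 9 and 1 at least 2-fold against 6.69% and 2.85% of all genes. The paternally expressed growth factor gene IGF2 was at 0 to 0.157 CPM in Tet-One and 0.614 to 0.979 CPM in Tet-PTF1a, and its neighbour H19, the maternally expressed RNA, was at 163, 207, 169 and 176 CPM against 374, 390, 406 and 377 CPM (1.11 ± 0.07), so both were higher. At the DLK1-DIO3 locus of chromosome 14 the directions were split, with DIO3 at 0.385 to 0.561 against 1.92 to 2.51 CPM and the non-coding RNA MEG3 at 171 to 188 against 51.1 to 58.4 CPM (−1.73 ± 0.04), as with MEG9 (above). PPP1R9A, a neuronal actin-binding protein gene, was at 2.56 to 3.97 against 28.4 to 31.8 CPM. Of 20 clustered protocadherins, adhesion genes chosen from alternative promoters, 10 were higher and 3 lower with 4 at least 2-fold higher, led by PCDHAC2 (1.71) and PCDHA4 (1.54), while PCDHGC3, the most abundant per exon length, had a difference of −0.31.

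Lipid genes and the remaining lists gave fewer large differences. Of 23 fatty acid synthesis genes, 12 were higher and 6 lower, with the elongases ELOVL7 (3.64) and ELOVL6 (2.10) at the top and the desaturase FADS3 (−1.08) at the bottom; SCD, the main desaturase, was at 2834 to 3190 against 4003 to 4287 CPM. Of 26 cholesterol synthesis genes 10 were higher and 12 lower with 0 at 2-fold, FDPS being lowest at −0.99. Of 30 NRF2 targets 9 were higher and 16 lower, which turned to 14 and 12 with the trend removed, and heme oxygenase (HMOX1) was at 59.0 to 65.5 against 23.7 to 26.8 CPM. Of 14 replication-dependent histones 8 were higher and 1 lower, with 0 at 2-fold and HIST1H2AG at 0.82, and with the trend removed 13 were higher, 5 of them at least 2-fold, and HIST1H2AG was at 1.41; their transcripts mostly lack a poly(A) tail. Of 4 cancer-testis genes tested, 3 were higher and 1 lower, with TEX15 at 2.36 and PRAME at −0.50. Of the leukocyte genes 3 of 4 were lower, with CORO1A at −1.29 and CD68 at −0.78, of the fibroblast genes 2 were higher and 2 lower, with ACTA2 at 0.86 and PDGFRB at −0.84, and of the 2 endothelial genes ERG was lower, at −0.79.

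Genes that respond to the transgene were looked at without Dox. The 25 genes with the largest Dox response in the Tet-PTF1a line were ranked against the same Tet-PTF1a Control libraries, which favours genes that are low there, so their levels are a description and say nothing of whether the transgene leaked. Of the 25, 10 were listed in both tables and 8 were tested. COL5A3 was at 0.418 ± 0.064 CPM in Tet-One Control and 0.652 ± 0.147 in Tet-PTF1a Control (SD, n = 4), and it reached 12.6 CPM with Dox in Tet-PTF1a. The antisense RNA TMEM51-AS1 was at 0.587 ± 0.139 against 2.06 ± 0.370 CPM, and at 32.9 CPM with Dox. ATOH8, a bHLH factor, was at 1.17 ± 0.227 against 0.742 ± 0.165 CPM, and at 31.8 CPM with Dox. The Notch effector HEYL, for example, was at 8.12 ± 0.559 and 8.41 ± 0.259 CPM in the Control libraries and at 85.0 CPM with Dox.

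The highest-ranked responders have low Control levels by this choice. SLCO2B1, an organic anion transporter, had 1 to 3 counts in each Tet-PTF1a Control library and 9.33 CPM with Dox. CHRNA1, a nicotinic acetylcholine receptor subunit, had 0 to 1 counts and 3.79 CPM with Dox, and trypsinogen PRSS1 had 1 to 4 counts and 3.06 CPM with Dox. BHLHA15, the gene of MIST1, had 2 to 16 counts (0.263 ± 0.164 CPM) without Dox and 0.653 CPM with it. These genes are not listed for Tet-One, so whether they lay lower, equal or higher there was not measured.

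Genes listed in a single table lie outside the test, and some of them were plainly expressed. The Tet-PTF1a table alone listed 527 genes, of which 136 had a mean above 1 CPM in its Control libraries, and the tables of Tet-One and Tet-MIST1 alone listed 353, of which 43 did. The highest in Tet-PTF1a was NTS, the neuropeptide neurotensin, at 15.1, 14.8, 13.2 and 15.4 CPM. It was followed by the teneurin TENM3 at 8.96 ± 0.543 CPM (SD, n = 4), the eye and organ development factor DACH1 at 8.77 ± 1.14, the forkhead factor FOXP2 at 7.67 ± 0.359, collagen type III (COL3A1) at 6.18 ± 0.565, the phosphatase and cofactor EYA1 at 5.69 ± 0.274, the KIT ligand KITLG at 5.59 ± 0.784 and the zinc finger factor MECOM at 5.40 ± 0.527. The authors filtered each table by itself, so their levels in Tet-One and Tet-MIST1 were not measured here.

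The genes of the Tet-One table alone were lower in level, the highest being MTRNR2L8 at 2.55 ± 0.352 CPM. With MTRNR2L2 (2.08 ± 0.0171), it is one of the nuclear copies of mitochondrial rRNA sequence, where reads of the mitochondrial genome can be placed. IL2RA, the alpha chain of the interleukin-2 receptor, was at 0.339, 1.47, 6.66 and 1.36 CPM, so that 1 library stood above the other 3. PRTN3, a neutrophil protease, was at 2.19 ± 0.428 CPM, the noradrenaline transporter SLC6A2 at 1.98 ± 0.295, AP3S2 at 1.95 ± 0.202, the kinase CAMK2A at 1.95 ± 0.161 and the splicing factor SCNM1 at 1.94 ± 0.221. Of the genes of one table, 13 of 527 and 15 of 353 are named in a read-through gene.

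Along the chromosomes, differences of the same sign ran together. With a running median over 31 neighbouring genes, 27 stretches went beyond 0.5 on the log2 scale, 17 higher with 849 genes and 10 lower with 574 genes. They were chosen on these values, so no test is given. The stretch furthest below zero was the end of the short arm of chromosome 16 (chr16:96979-3767598), with 135 genes, a median of −0.58 and a running median down to −0.79; its first gene POLR3K was at −0.76 and its last, TRAP1, at −0.77, and among its most expressed genes RPS2 was at −0.58 and SRRM2 was not called (−0.06). The others lowest were chr19:53898397-56129907, with 53 genes and a running median down to −0.71, and chr1:153901977-156262234, with 65 genes and down to −0.65, where LMNA was at −0.95 and TPM3 at −0.29. The highest were chr3:156527060-183602693 (67 genes, up to 0.76, with SMC4 at 0.87 and ECT2 at 0.74), chr19:19756010-32878573 (42 genes, up to 0.74) and chr2:203241050-216967506 (41 genes, up to 0.69, with BMPR2 at 1.11 and MAP2 at 1.22).

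These stretches also differed in base composition, with a median GC content of 63.5% in that of chromosome 16 and 40% in that of chromosome 3. With the trend removed, a single stretch was left (chr5:40711678-54529545, 37 genes, running median down to −0.52), and the median of the chromosome 16 stretch was −0.32. Without trend removal the chromosome 5 stretch had a median of −0.26 in Tet-PTF1a minus Tet-One Control, with 10 genes higher and 19 lower. In Tet-MIST1 Control minus Tet-One Control its median, also without trend removal, was −0.50. By these medians Tet-One lay above both other lines there. A gain or loss of DNA and a difference in expression cannot be told apart in RNA counts.

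The Dox libraries of the same lines, which share no library with the Controls, were compared in the same way, with the response to PTF1a added. They come from the same derivations, passage and count tables. Agreement with the Controls therefore cannot separate the ways in which the lines differ. Of 13453 genes tested, 8458 were called (62.9%) and 2082 (15.5%) differed at least 2-fold, 1169 (8.69%) higher and 913 (6.79%) lower in Tet-PTF1a. The spread was larger, with a biological coefficient of variation of 14.2%. Over the 13399 genes in both comparisons the log2 differences correlated with a Pearson's r of 0.880 and a Spearman's rank coefficient of 0.877, as a description across genes, which are not independent replicates and share their length and base composition. Of the 1267 genes at least 2-fold apart in Controls, 1252 (98.8%) had the same direction in the Dox libraries and 1026 (81.0%) were also called at 2-fold there. SPARC differed by 5.86 in the Dox libraries, COL5A2 by 5.21, GRHL3 by 5.84, ATP5E by −4.69 and CES1 by −4.27. Of the interferon-stimulated genes, 24 were at least 2-fold higher and 1 at least 2-fold lower in Tet-PTF1a with Dox, where IFIH1 differed by 2.82 and IFITM1 by 1.71.

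The third line placed these differences on either side. Of the 899 genes at least 2-fold higher in Tet-PTF1a Control, Tet-MIST1 Control lay nearer to Tet-PTF1a at 512 (57%) and nearer to Tet-One at 387 (43%). Of the 383 at least 2-fold lower, it lay nearer to Tet-PTF1a at 199 (52%) and nearer to Tet-One at 184 (48%). The genes included those at which Tet-PTF1a stood alone, such as ATP5E and MALAT1, and those at which Tet-One did, such as IFIH1, OASL, PCK2 and CES1. At others, such as NR5A2 and IFITM1, the lines were all apart, with Tet-MIST1 below Tet-One. These are levels set side by side, with no test, since Tet-MIST1 would be compared with the same Tet-One libraries.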

How the data were processed

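Polyadenylated RNA of 24 Panc-1 libraries (3 lines, 4 Control and 4 Dox libraries each, given as biological replicates in the study's methods) was sequenced as paired-end reads on an Illumina HiSeq instrument. Per the methods and labels, the authors aligned reads to hg19 with TopHat, and the labels also name HTSeq, DESeq and edgeR, without versions. The deposited tables hold raw read counts per gene, 1 table per line, each filtered by the authors at 0.5 CPM, to be passed in 4 or more libraries. The same tables hold the authors' CPM, treated as a score because its scaling is not given in the sources used here, and the authors' own Dox comparisons as log2 fold changes, p-values and FDR; none of these was used. Names turned into dates (20 per table) and XIST and Y-linked genes (1 per table) were left out.

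Counts of the genes in common were scaled by TMM factors over all 24 libraries and tested with the quasi-likelihood test of edgeR 4.0.16 (limma 3.58.1, R 4.3.3), two-sided, with the same 0.5 CPM limit required in 4 or more of the 8 Control libraries, a prior count of 2 and Benjamini-Hochberg adjustment over all genes tested. The script was checked on simulated data. Standard errors come from this fit, and n is 4 per group unless stated. Alternatives were other scalings, DESeq2 1.42.0, other filters, thinning, and removal of a trend with exon length and GC content. Named genes were the 12 highest and 12 lowest differences without overlap of the lines, the 4 largest called members and the most abundant member per exon length of each of 40 gene lists, the genes of highest level per exon length in each line, the outer and most expressed genes of the stretches described, the 8 highest genes of each single table, PTF1A and BHLHA15. Other members of the lists, MALAT1, NEAT1 and the read-through genes were chosen after their values were seen. The comparison, its members and the gene lists were chosen with earlier results of these data known. Results for some named genes are not reported here. Promoter windows are from RefSeq (GRCh38.p14), all other coordinates are hg19. Counting error is small at genes with many counts and larger at genes with few. The p-values hold it together with the spread between libraries of 1 derivation per line.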

Additional observations from a re-analysis of the deposited data

Results flagged for a closer look

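Of 268 groups of 4 libraries examined for the named genes, 16 held a library whose gap to its nearest neighbour was a large share of the group's range (Dixon's test), and chance alone flags about 1 in 20. In 9 of the 16 the library was Tet-PTF1a Control replicate 1: BMP5 at 6.15 CPM (others 4.90 to 4.96), PCK2 at 46.7 (23.8 to 26.4), CCL2 at 29.9 (33.1 to 33.5), GDF15 at 134 (88.4 to 95.8), AXIN2 at 2.33 (2.72 to 2.76), HES2 at 10.7 (11.3 to 11.4), KLF4 at 1.41 (2.12 to 2.21), FOSB at 1.91 (2.39 to 2.45) and CCND2 at 9.40 (3.65 to 4.09). This library was the deepest of its group, and the count of genes called without it was 10191. In Tet-PTF1a Control, MEG9 stood apart in replicate 2, at 1.80 CPM (1.10 to 1.18), and PTF1A in replicate 3, with 0 counts (0.0461 to 0.0544 CPM in the others, 1 or 2 counts each). In Tet-One Control, BMP5 stood apart in replicate 4, at 0.0256 CPM (0.0745 to 0.0801), and DLL1 too, at 0.795 (1.15 to 1.18). DKK1 did so in replicate 2, at 41.0 (44.8 to 45.5), and RPS16, at 10800 (11300 to 11400), and FTL, at 997 (1120 to 1130), in replicate 3. PTF1A is not listed for Tet-One, and at the other genes named the libraries of the lines did not overlap.

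Both TGFB3 and ID2 were lower in Tet-PTF1a Control, by log2 differences of −1.01 and −0.81, and higher in the Dox libraries of the line, by 0.92 and 1.80. They were singled out because they were called at FDR under 0.05 in both comparisons, in opposite directions. The difference between the comparisons was not itself tested. ID2, which sequesters E proteins, and TGFB3, a TGF-beta ligand, thus crossed between the lines with Dox.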

How the results depend on the processing

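The count of 10674 genes called was 10417 with DESeq2, 10670 with library size alone, 8808 when all 16 libraries of both lines were fitted together, 10201 after thinning to the smallest total, 10494 with at least 10 counts in every library and 10721 without a filter. Leaving out 1 library gave 10183 to 10694. For Tet-PTF1a Dox against Tet-One Dox, the count of 8458 was 7273 to 10977 when 1 library was left out, the highest without Tet-One Dox replicate 1, 8817 with DESeq2 and 8588 with library size. With a limit of 2-fold the counts were 1282 called, 899 higher and 383 lower, and 176 members of the gene lists. The 383 genes at least 2-fold lower became 219 with the length and GC trend removed. With a running median over 15 or 61 genes the stretches numbered 123 and 7, and with the trend removed, which was chosen after seeing the data, 1.

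Of the named genes over all alternatives, 2464 values kept direction and call, 3 lost the call (ITGB1 once and ABCC1 in 2 fits), CD44 gained it with library size, and CD44 reversed to −0.36 with the trend removed. Of the counts of members per list 21 moved by over 1.5 times, most of them with the trend removed, with library size or with all 16 libraries in the fit. With the replicate block the counts were 10761 and, for Tet-PTF1a Dox against Tet-One Dox, 7905. Same-numbered libraries of the lines correlated at 0.348, 0.0147, −0.138 and 0.154. The value for replicate 1 was the highest of all pairs across the lines. Every other library correlated better with a library of another number. Whether same-numbered libraries share more than a number was not tested. The smallest total, 18078331 counts, limits genes near 0.5 CPM. Counts of 1 to 5 were seen in the deeper Tet-One Control libraries at genes far below that level, such as DCLK1 with a mean of 0.0766 CPM.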
